A study of Mus musculus with 4 samples.

Results

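Genes of DNA replication and S phase were followed in induced regulatory T cells (iTreg cells), T cells that are driven toward the regulatory fate in culture. The group was set by name as 43 symbols and a mean of at least 1 FPKM (fragment counts scaled to transcript length and library size) over the 4 libraries. All 43 were in both deposited tables with 1 row each and passed that minimum, out of 22120 symbols used and 10587 at or above it. Their lowest mean was 5.99 FPKM, so none entered through a high value in 1 group alone. The libraries came from naive T cells of C57BL/6 mice, sorted and then cultured for 3 days with 2 ng/ml TGF-beta on a plate coated with anti-CD3/CD28 at 1 µg/ml. There were 2 libraries labelled MSC KO, from mice labelled as knocked out for the gene of the transcription factor musculin, and 2 labelled WT. Not given in the sources used here were the allele, the ages of the mice and whether the libraries of a label came from separate mice, so p-values measure only the spread between these samples. Library n of each label shares a deposited table, the first for MSC KO 1 with WT 1 and the second for MSC KO 2 with WT 2, and differences were taken within a table.

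RNA of the targeted gene was not lower in the libraries labelled MSC KO. Msc had 0.331 and 0.939 FPKM in those libraries, against 0.0243 and 0.0178 FPKM in those labelled WT. Each value lay below the minimum of 1 FPKM, so Msc was not tested. With the allele not given, such low values cannot show whether the gene was lost. Each direction given here therefore belongs to the labels and not to a measured loss of Msc. The T cell genes Cd3e (141 and 133 FPKM, against 149 and 155 FPKM) and Cd4 (166 and 209 FPKM, against 173 and 189 FPKM) were present throughout. The 9 genes of the T cell list summed to 1921 and 1778 FPKM in MSC KO-labelled libraries, against 1775 and 1837 FPKM in WT-labelled ones, with members on either side of WT. Ctla4 had 217 and 188 FPKM, against 112 and 120 FPKM, whereas Cd28 had 27.8 and 18.3 FPKM, against 31.8 and 33.4 FPKM. Foxp3, which defines regulatory T cells, had 2.97 and 7.05 FPKM in MSC KO-labelled libraries and 62.8 and 66.0 FPKM in WT-labelled ones. Markers of myeloid, NK, erythroid and mast cells summed to under 1 FPKM per list in every library, the 3 mast cell markers being at 0. Of the 5 B cell markers only Cd79b passed 1 FPKM, at 4.63 and 4.90 FPKM against 6.67 and 5.94 FPKM. Of the 2 CD8 genes, Cd8b1 had 8.56 and 19.1 FPKM, against 9.75 FPKM in each WT-labelled library, and Cd8a had 0.571 and 0.658 FPKM, against 1.58 and 1.90 FPKM. Depth, estimated from the spacing of low values, was 28200000 and 34800000 fragments in MSC KO-labelled libraries, against 27400000 and 37200000 fragments in WT-labelled ones. That estimate is rough, since 47.0% to 55.5% of the values used lay within 0.15 of a whole fragment. At that depth, and with the longest annotated transcript of each gene, no member came to fewer than about 479 fragments in any library. Shorter transcripts would give fewer.

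Before a cell copies its DNA, the origin recognition complex, Cdc6 and Cdt1 load the ring-shaped MCM helicase onto replication origins. In S phase the ring is activated by Cdc45 and the GINS complex, and polymerases, a sliding clamp and its loader copy both strands with nucleotides made on demand. Many of these genes are transcribed at the border of G1 and S phase by E2F factors, and T cells switch them on when activation takes them out of rest. In bulk RNA, fewer cycling cells and less RNA per cycling cell cannot be told apart.

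Promoter sequence is shown first because shared E2F sites are the feature for which this set of genes is known. Of the 43 genes, 35 had a promoter in the RefSeq table (GRCm38.p6, 250 bases before to 50 after the start). The motifs searched on both strands were spelled TTCCCGC, as well as TTCGCGC, then also TTGCCGC, and finally TTGGCGC, of which the last can overlap the opposite-strand form of TTCGCGC by 4 bases. At least 1 match was present in 22 of the 35 genes (62.9%), in 20.6% of the 7509 tested genes with a promoter and in 10.9% of all 27025 genes in that table. The windows below give the 120 bases before the start of 7 members picked by hand. They are 5 of those described further down as lower, Orc1, which went the other way, and Pcna, the most abundant. These 7 make a match look more common than it was. Of the 35 genes, 16 (45.7%) held one in the 250 bases before the start, beside 17.2% of tested genes. Chaf1b and Lig1, also lower, held none in those 120 bases. Mcm6 lies at chr1:128359706-128359825 on the minus strand, E2f8 at chr7:48881597-48881716 on the minus strand, Chaf1a at chr17:56040296-56040415 on the plus strand and Rrm1 at chr7:102441575-102441694 on the plus strand. Rpa2 lies at chr4:132768240-132768359 and Orc1 at chr4:108579334-108579453, both on the plus strand, and Pcna at chr2:132253181-132253300 on the minus strand. Capitals mark a match to an E2F motif on either strand.
Mcm6: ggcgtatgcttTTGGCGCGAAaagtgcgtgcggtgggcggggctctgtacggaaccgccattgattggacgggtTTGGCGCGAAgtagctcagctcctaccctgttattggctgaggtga
E2f8: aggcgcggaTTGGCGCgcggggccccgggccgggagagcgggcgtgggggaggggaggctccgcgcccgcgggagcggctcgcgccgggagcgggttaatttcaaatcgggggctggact
Chaf1a: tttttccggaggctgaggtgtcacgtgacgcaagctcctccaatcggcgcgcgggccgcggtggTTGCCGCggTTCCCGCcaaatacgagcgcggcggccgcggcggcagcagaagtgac
Rrm1: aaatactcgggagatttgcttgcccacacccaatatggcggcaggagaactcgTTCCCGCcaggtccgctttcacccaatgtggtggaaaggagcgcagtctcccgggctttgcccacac
Rpa2: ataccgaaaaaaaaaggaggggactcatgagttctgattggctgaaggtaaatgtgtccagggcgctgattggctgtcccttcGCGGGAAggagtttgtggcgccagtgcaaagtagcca
Orc1: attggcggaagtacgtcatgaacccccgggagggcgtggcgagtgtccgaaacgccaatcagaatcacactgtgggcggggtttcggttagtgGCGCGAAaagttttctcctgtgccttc
Pcna: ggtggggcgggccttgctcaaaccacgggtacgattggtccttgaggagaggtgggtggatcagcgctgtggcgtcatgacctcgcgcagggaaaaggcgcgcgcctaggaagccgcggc
Mcm6 held the overlapping pair of motifs at 2 places, with first bases 109 and 46 bases before the start. Orc1 held a match 27 bases before its start, so that a match was found on both sides of the direction described below. Pcna had no match to these letters in this window, which says nothing of E2F factors at that gene.

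The expression of DNA replication genes was lower in the libraries labelled MSC KO by a small and broadly shared amount. Of the 43 genes, 37 lay below WT in both tables, beside 37.5% of all 10587 genes tested, and 2 lay above WT in both tables, beside 31.2%. The median difference over the 43 genes was -0.26 on the log2(FPKM + 1) scale (-0.21 in the first and -0.31 in the second table), and over all genes tested it was -0.02 (0.00 and -0.04). The median gene was at 86.3% of its WT level in the first and 80.2% in the second table. Summed over the 43 genes the level was 2685 and 2501 FPKM in MSC KO-labelled libraries, against 3009 and 3077 FPKM in WT-labelled ones. In 36 of the 43 genes both MSC KO-labelled values were below both WT-labelled values, as in 32.5% of all genes tested, although that count sets values of the 2 tables side by side. The reverse held in 2 of the 43, beside 2813 of the 10587 genes tested. Groups that did not overlap were thus common among all genes. None of the 43 was 2-fold lower in both tables, whereas 18 were lower by at least 0.2 in both, as were 14.6% of all genes.

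In the limma fit, blocked by table, 0 of the 43 genes passed an adjusted p of 0.05, beside 0.00945% of all genes tested. At an unadjusted p under 0.05, 11 of the 43 were lower, beside 11.2% of all genes, and 0 were higher, beside 9.21%. The authors' deposited tables, which test 1 library against 1, called 0 of the 43 in either table, beside 0.656% and 0.549% of the symbols tested there. The fit had 1 residual degree of freedom. The count of members called rose when either MSC KO-labelled library was left out, but not when either WT-labelled library was. Without MSC KO 1, 22 of the 43 were called, all lower, with 21.6% of all genes called. Without MSC KO 2, 13 were called lower and 1 higher, with 25.2% of all genes called. Those fits have no block, and take the lone library to vary like the other label.

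**Figure D1:**
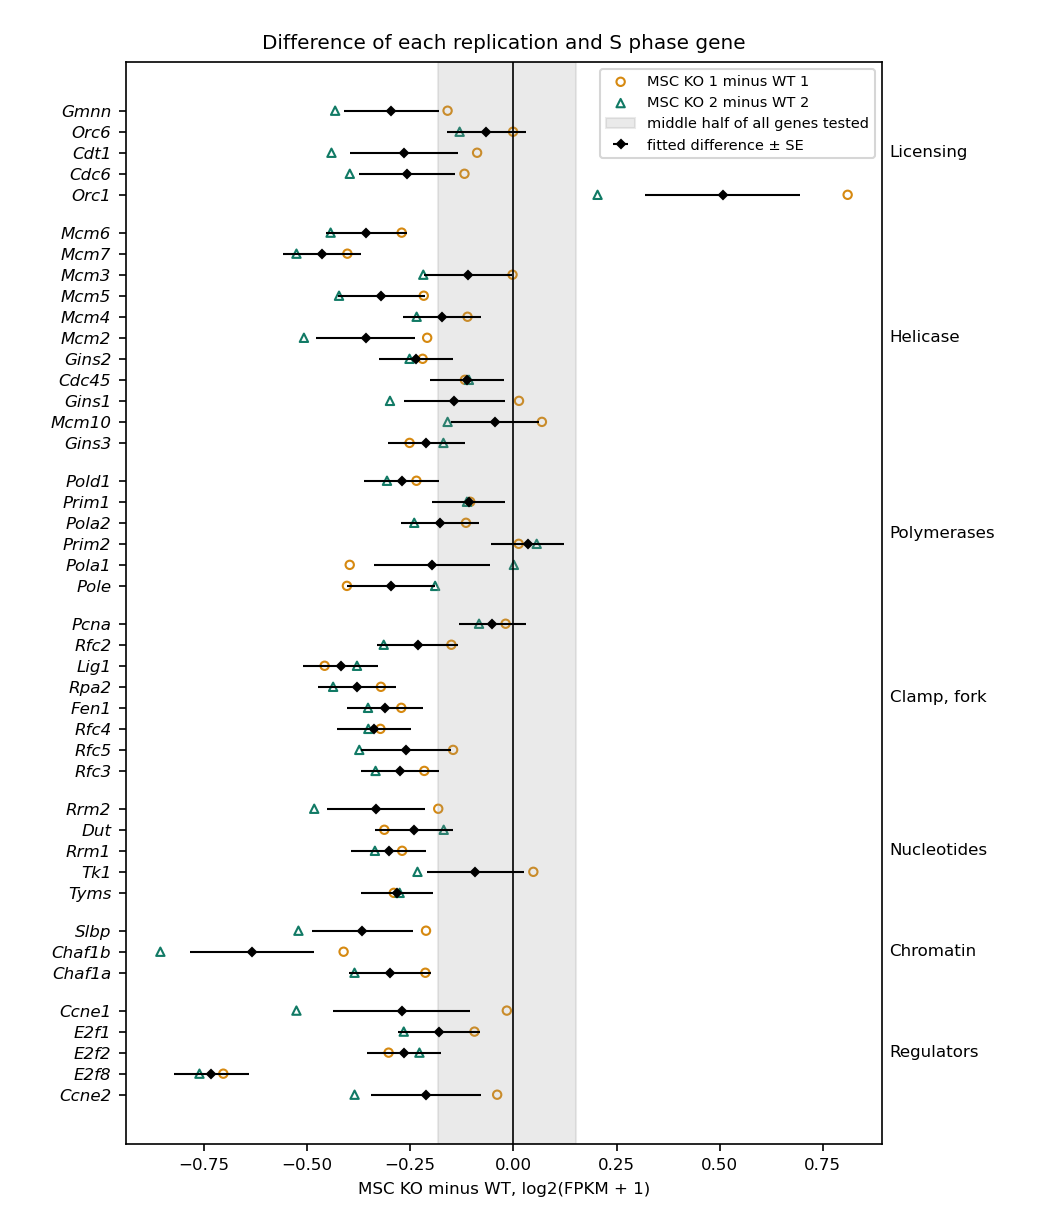
Difference between MSC KO-labelled and WT-labelled libraries for each of the 43 genes on the log2(FPKM + 1) scale, grouped by role and ordered by WT level. Diamonds with bars are the fitted difference and its standard error, circles are the first table, triangles are the second table, and the grey band spans the middle of all genes tested from the first to the third quartile (-0.18 to 0.15). The fitted difference was below 0 in 41 of the 43 genes, where the median of all genes tested was -0.02. Orc1 stood farthest to the right at 0.51, and Prim2 was just above 0 at 0.03.

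Of the 5 genes that license origins or restrain licensing, 4 lay below WT in both tables and Orc1 lay above, and none passed by limma. Gmnn, which encodes geminin, the inhibitor that keeps Cdt1 from loading MCM rings a further time, was the most abundant, at 116.6 and 90.0 FPKM in MSC KO-labelled libraries, against 130 and 122 FPKM in WT-labelled ones. Both MSC KO-labelled values were the lowest, and MSC KO 2 was lower than MSC KO 1. Cdt1 itself had 48.3 and 36.6 FPKM, against 51.4 and 50.1 FPKM, and the loading ATPase gene Cdc6 had 11.8 and 10.1 FPKM, against 12.9 and 13.6 FPKM. In both genes the gap was mainly in MSC KO 2, at 73.1% and 74.2% of its WT library. Orc6, a small subunit of the origin recognition complex, had 51.0 and 47.8 FPKM, against 51.0 and 52.4 FPKM, with a difference of -0.07 ± 0.10 (SE). Orc1, the largest subunit and an ATPase of that complex (chromosome 4, mm9, listed interval 108252058 to 108287436), had 13.3 and 9.03 FPKM in MSC KO-labelled libraries, against 7.14 and 7.71 FPKM in WT-labelled ones. The 2 groups did not overlap, and MSC KO 1 stood highest. Both MSC KO-labelled values were above both WT-labelled ones in 2813 of the 10587 genes tested. The difference was 0.51 ± 0.19 (adjusted p = 0.271, limma), of which the first table gave 0.81 and the second table gave 0.20. Orc1 was at 0.25 without MSC KO 1, and passed, at 0.76, without MSC KO 2.

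The 6 subunits of the replicative helicase, Mcm2 to Mcm7, assemble in equal numbers into one ring and all lay below WT in both tables. Their median difference was -0.34, with -0.21 in the first and -0.43 in the second table. Mcm7 (chromosome 5, mm9, 138605816 to 138613090) had 100.9 and 97.3 FPKM in MSC KO-labelled libraries, against 134 and 141 FPKM in WT-labelled ones. The groups did not overlap, and the difference of -0.46 ± 0.09 (adjusted p = 0.166, limma) was the most negative of the 6. Mcm6, the most abundant per length, had 138 and 128 FPKM, against 167 and 174 FPKM, and had a difference of -0.36 ± 0.10 (adjusted p = 0.211). Mcm2 had 54.1 and 46.0 FPKM, against 62.7 and 65.9 FPKM, and Mcm5 had 80.1 and 72.2 FPKM, against 93.3 and 97.1 FPKM. Mcm4 was closer, at 70.1 and 66.4 FPKM, against 75.7 and 78.2 FPKM. Mcm3 had 108 and 97.001 FPKM, against 109 and 113 FPKM, with the first table at 99.9% of WT. In the WT-labelled libraries the levels ran from Mcm6 down through Mcm7, Mcm3, Mcm5 and Mcm4 to Mcm2. In the MSC KO-labelled libraries Mcm7 and Mcm3 lay close to each other, and the Mcm6 level was 2.55 and 2.78 times that of Mcm2, against 2.66 and 2.65 times in WT.

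Among the factors that activate the ring, Cdc45, Gins2 and Gins3 lay below WT in both tables. Cdc45 had 40.8 and 44.4 FPKM, against 44.3 and 47.9 FPKM in WT, with overlapping groups and a difference of -0.11 ± 0.09. Of the GINS genes, Gins2 (52.2 FPKM in each MSC KO-labelled library, against 60.9 and 62.4 FPKM) and Gins3 (6.74 and 7.01 FPKM, against 8.21 and 8.01 FPKM) lay below WT in both tables. Gins1 was lower in the second table alone, at 28.7 and 21.8 FPKM, against 28.4 and 27.1 FPKM. Mcm10, which helps the activated helicase to unwind DNA, had 15.5 and 14.2 FPKM, against 14.7 and 16.01 FPKM, and its 2 tables differed in sign. Gins2, Ccne2 and Tk1 are listed over intervals 12.8, 4.38 and 2.31 times as long as the gene in RefSeq. Lig1 and Rfc4 are listed over 1.53 and 1.47 times that length. Neighbouring transcripts may share all those rows. The interval of Tyms is 0.439 times as long as its RefSeq gene, so that row may cover only a part of it.

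**Figure D2:**
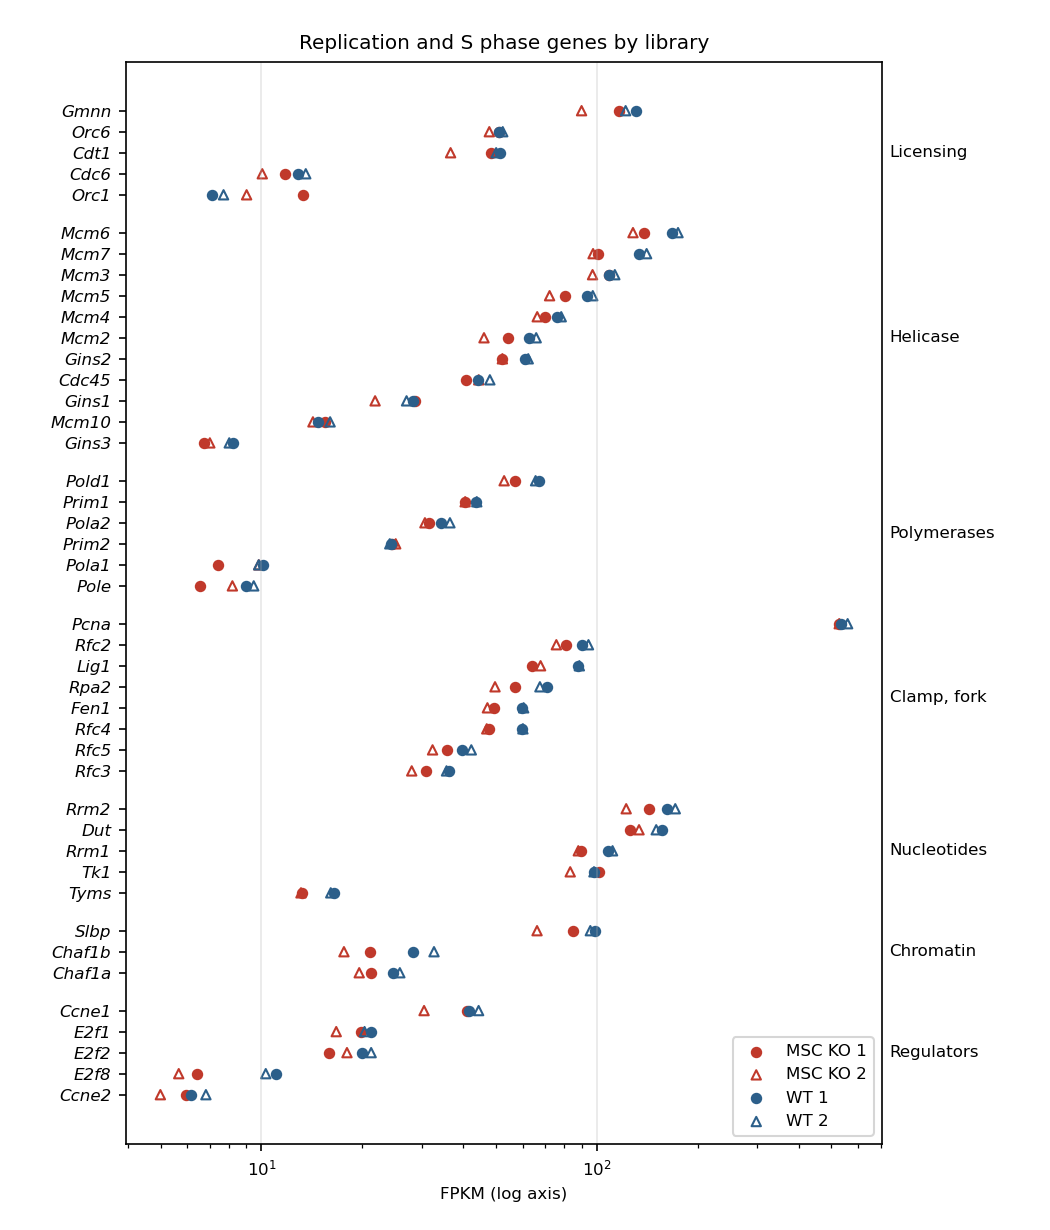
FPKM of each of the 43 genes in the 4 libraries on a log axis, grouped by role and ordered by WT level within a role, with MSC KO-labelled libraries in red, WT-labelled libraries in blue, replicate 1 as filled circles and replicate 2 as open triangles. Levels ran from 4.995 FPKM for Ccne2 in MSC KO 2 to 559 FPKM for Pcna in WT 2, and the order of the genes was nearly the same in both labels (Spearman rho 0.99 across the 43 genes, which are not independent replicates).

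Among the polymerase genes, 4 of 6 lay below WT in both tables. Pold1, the catalytic subunit of lagging-strand polymerase delta and the most abundant of the 6, had 57.0 and 52.9 FPKM in MSC KO-labelled libraries, against 67.2 and 65.6 FPKM in WT-labelled ones. Pole, the catalytic subunit of leading-strand polymerase epsilon, had 6.56 and 8.19 FPKM, against 9.001 and 9.48 FPKM. Both genes had MSC KO-labelled values below both WT-labelled values, with differences of -0.27 ± 0.09 for Pold1 and -0.30 ± 0.11 for Pole, the second at -0.16 without MSC KO 1. Pola1, which starts new strands together with primase, was lower in MSC KO 1 alone, at 7.41 and 9.82 FPKM, against 10.1 and 9.81 FPKM. Its partner Pola2 had 31.6 and 30.7 FPKM, against 34.3 and 36.4 FPKM. The primase genes lay nearest to WT. Prim1 had 40.6 and 40.5 FPKM, against 43.7 and 43.8 FPKM, and Prim2 had 24.5 and 25.1 FPKM, against 24.3 and 24.1 FPKM, making it with Orc1 one of the 2 members above WT in both tables, although its fitted difference of 0.03 was -0.0057 when libraries were scaled to the same sum.

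The 8 genes of the sliding clamp, its loader and lagging-strand processing all lay below WT in both tables. Pcna, the clamp that tethers polymerases to DNA, was by level the largest of the 43 genes, at 527 FPKM in each MSC KO-labelled library, against 534 and 559 FPKM in WT-labelled ones. Its difference of -0.05 ± 0.08 (adjusted p = 0.751, limma) was among the smallest, so its share of the summed level of the 43 genes was 19.6% and 21.1%, against 17.7% and 18.2%. A search for annotated pseudogenes named after a member found them for Pcna and Tyms, and pseudogenes with other names would have been missed. How the authors' counting assigned reads between copies is not stated. Lig1, the ligase that joins Okazaki fragments, had 63.9 and 67.9 FPKM, against 88.1 and 88.6 FPKM, at 72.5% and 76.6% of WT. The groups lay well apart, with a difference of -0.42 ± 0.09 (adjusted p = 0.176, limma). Rpa2, a subunit of the protein that coats single-stranded DNA, had 56.8 and 49.7 FPKM, against 71.2 and 67.6 FPKM (-0.38 ± 0.09, adjusted p = 0.195). Fen1, the nuclease that trims the ends of Okazaki fragments, had 49.5 and 47.1 FPKM, against 59.9 and 60.5 FPKM (-0.31 ± 0.09, adjusted p = 0.220). Neither gene had overlapping groups. Of the clamp loader subunits, Rfc4 had 47.8 and 46.9 FPKM, against 60.0 and 60.1 FPKM, with the same step in both tables (-0.32 and -0.35). Rfc2, Rfc3 and Rfc5 had fitted differences of -0.23, -0.27 and -0.26.

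Genes that make deoxynucleotides lay below WT in both tables, Tk1 aside. Ribonucleotide reductase is built from the products of Rrm1 and Rrm2, of which Rrm2 is the one whose protein level follows the cell cycle. Rrm2 had 143 and 122 FPKM in MSC KO-labelled libraries, against 162 and 171 FPKM in WT-labelled ones, and Rrm1 had 89.4 and 88.0 FPKM, against 108 and 111 FPKM. Neither gene had overlapping groups, and the differences were -0.33 ± 0.12 for Rrm2 and -0.30 ± 0.09 for Rrm1 (adjusted p = 0.263 and 0.223, limma), Rrm2 being at -0.22 without MSC KO 2. Tyms, which makes thymidylate, had 13.2 and 13.1 FPKM, against 16.4 and 16.1 FPKM, and had nearly the same difference in both tables (-0.29 and -0.28). Dut, which removes dUTP, had 126 and 133 FPKM, against 156 and 150 FPKM. Tk1, the salvage kinase for thymidine, overlapped between the labels, at 101.3 and 83.2 FPKM, against 97.9 FPKM in each WT-labelled library.

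Chaf1b and Chaf1a encode subunits of chromatin assembly factor 1, which places histones on new DNA. Chaf1b (chromosome 16, mm9, 93884145 to 93906351) had 21.0 and 17.6 FPKM in MSC KO-labelled libraries, against 28.3 and 32.7 FPKM in WT-labelled ones. The groups did not overlap, and the level was 74.3% of WT in the first and 53.9% in the second table. Its difference of -0.63 ± 0.15 (adjusted p = 0.187, limma) was the second most negative of the 43. Chaf1a had 21.2 and 19.6 FPKM, against 24.7 and 25.8 FPKM, a difference of -0.30 ± 0.10. Slbp, which binds the stem-loop at the end of histone mRNA, had 84.8 and 66.3 FPKM, against 98.3 and 95.5 FPKM. Its difference was -0.37 ± 0.12 (adjusted p = 0.245, limma), and -0.19 without MSC KO 2.

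Among the regulators, E2f8 had the most negative difference of all 43 genes. It encodes an atypical E2F that represses E2F target genes late in S phase (chromosome 7, mm9, 56121798 to 56136411). E2f8 had 6.41 and 5.67 FPKM in MSC KO-labelled libraries, against 11.1 and 10.3 FPKM in WT-labelled ones. The groups lay far apart and both tables gave nearly the same step, 57.9% and 55.0% of WT. The difference was -0.73 ± 0.09 (adjusted p = 0.130, limma, the lowest of the 43). The activator genes E2f1 and E2f2 were closer to WT. E2f1 had 19.8 and 16.7 FPKM, against 21.2 and 20.3 FPKM, and E2f2 had 15.9 and 18.0 FPKM, against 19.9 and 21.2 FPKM. The cyclin E genes, whose products activate CDK2 at the start of S phase, differed mainly in the second table. Ccne1 had 41.1 and 30.5 FPKM, against 41.5 and 44.4 FPKM, and Ccne2 had 5.97 and 4.995 FPKM, against 6.17 and 6.83 FPKM. The Ccne1 difference was -0.02 in the first and -0.53 in the second.

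The 43 genes varied more between the MSC KO-labelled libraries than between the WT-labelled ones. The median absolute difference was 0.13 between MSC KO 2 and MSC KO 1 and 0.06 between WT 2 and WT 1, and the median absolute difference between labels was 0.27. Over all genes tested the same 3 medians were 0.17, 0.07 and 0.17. Levels set across tables may also carry a difference in the authors' scaling. MSC KO 2 was below MSC KO 1 in 33 of the 43 genes, beside 51.8% of all genes tested. The difference from WT was more negative in the second table in 34 of the 43, beside 56.9% of all genes. Mitosis genes did not share that order, with 10 of 30 more negative in the second table and 8 of 30 lower in MSC KO 2 than in MSC KO 1. Whether the 2 gene lists differ in this was not tested.

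Genes of the same machinery outside the 43 were taken from a list of 50, of which 49 were tested. Of these, 35 lay below WT in both tables, beside 37.5% of all genes, and 3 above, beside 31.2%, with a median difference of -0.24. None passed by limma in either direction, and 19 were lower at an unadjusted p under 0.05, beside 11.2% of all genes. Dck, the deoxycytidine salvage kinase, had 28.7 and 24.0 FPKM, against 42.5 and 42.2 FPKM. The histone chaperone gene Asf1b had 33.6 and 36.3 FPKM, against 49.2 and 52.2 FPKM, and the fork protection gene Timeless had 19.3 and 18.1 FPKM, against 27.2 and 29.1 FPKM. Rpa1, the partner of Rpa2, had 64.3 and 60.4 FPKM, against 89.6 and 93.2 FPKM, and Wee1, a kinase that restrains CDKs, had 7.61 and 7.81 FPKM, against 11.6 and 11.2 FPKM. These 5 were named because their differences were the largest of the list in the table where each was smaller. Their fitted differences, between -0.67 and -0.51, and their groups without overlap follow from that choice. Over the 49 genes, both MSC KO-labelled values were below both WT-labelled values in 33, beside 32.5% of all genes tested.

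A list of 30 mitosis genes, the nearest neighbours in the cell cycle, had a median difference of -0.31, with 28 below WT in both tables, beside 37.5% of all genes, and 0 above, beside 31.2%. None passed by limma, and 18 were lower at an unadjusted p under 0.05, beside 11.2% of all genes. Nusap1, a spindle protein gene, had 51.4 and 54.6 FPKM, against 80.7 and 81.6 FPKM, and the mitotic cyclin gene Ccnb2 had 96.2 and 96.3 FPKM, against 135 FPKM in each WT-labelled library. Mki67, the common proliferation marker, had 14.5 and 19.99 FPKM, against 20.4 and 22.2 FPKM, and Top2a had 100.1 and 116.9 FPKM, against 143 and 152 FPKM. The medians of both lists lay on the same side of WT, and the difference between the lists was not tested.

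Regulators of G1 outside the 43 had a median difference of -0.06 over 22 tested genes, with 11 below WT in both tables, beside 37.5% of all genes, and 4 above, beside 31.2%. None passed by limma, and 4 had an unadjusted p under 0.05, a share near the 20.4% of all genes. Cdkn2c, which encodes the CDK4 and CDK6 inhibitor p18, had 5.53 and 7.66 FPKM in MSC KO-labelled libraries, against 18.0 and 20.02 FPKM in WT-labelled ones. The groups lay far apart, at 30.7% and 38.3% of WT, with a difference of -1.41 ± 0.11 (adjusted p = 0.115, limma). E2f7, the close relative of E2f8, had 1.37 and 1.51 FPKM, against 2.65 and 2.44 FPKM. Rbl1, the E2F-binding pocket protein p107, had 15.3 and 13.2 FPKM, against 18.9 and 20.6 FPKM, and Ccnd3, a D-type cyclin gene, had 264 and 288 FPKM, against 306 and 326 FPKM. E2f5, a further member of the E2F family, was higher, at 7.53 and 10.1 FPKM, against 5.64 and 6.06 FPKM.

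**Figure D3:**
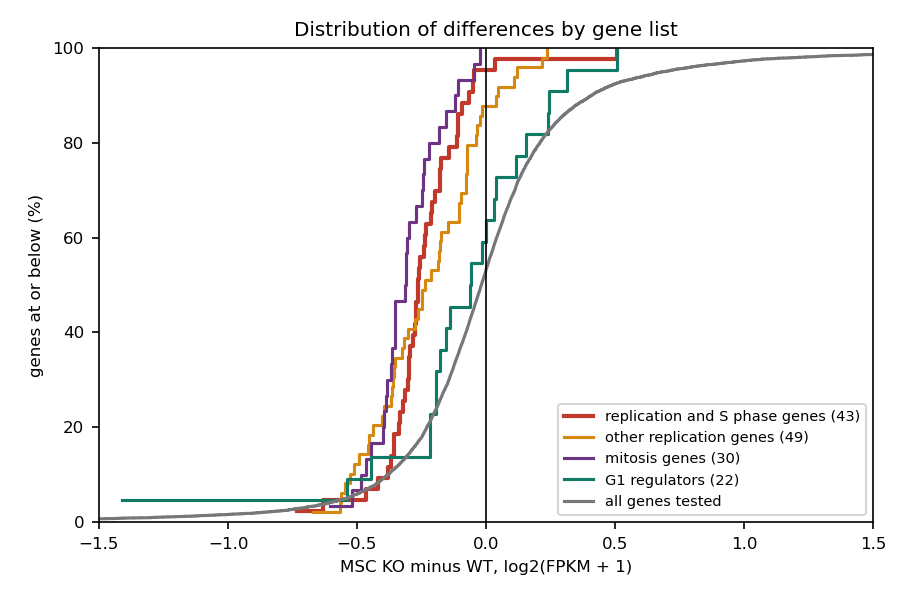
Cumulative share of genes at or below each difference (MSC KO-labelled minus WT-labelled, log2(FPKM + 1)) for the 43 replication and S phase genes, 49 other replication genes, 30 mitosis genes, 22 G1 regulators and all genes tested, with the axis limited to 1.5 on either side. The first 3 lists lie to the left of the curve of all genes, with medians of -0.26, -0.24 and -0.31 against -0.02, and the G1 regulators lie closer to it at -0.06.

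Immediate early and heat shock genes can respond to handling and stress, though not to these alone. Of the 13 tested genes 8 were above WT in both tables, beside 31.2% of all genes, and 1 was below, beside 37.5%. Among the 8, Fos and Hspa1b reached a mean of 1 FPKM only through the MSC KO-labelled libraries. None passed by limma (lowest adjusted p = 0.121), and 5 had an unadjusted p under 0.05, beside 20.4% of all genes. The summed level was 3578 and 3576 FPKM in MSC KO-labelled libraries, against 3136 and 3256 FPKM in WT-labelled ones. The median difference of the list was 0.31. Atf3, with the largest difference of the list, had 31.5 and 20.6 FPKM, against 6.83 and 6.79 FPKM. The part of these genes in the replication result was not tested.

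Promoter motifs were counted in the same way for each list, with no test of the shares. E2F motif matches were found in 62.9% of the 35 replication and S phase genes, 56.1% of 41 other replication genes, 16% of 25 mitosis genes and 20.6% of tested genes. The letters CCAAT, bound by NF-Y, were found in 60% of the replication and S phase genes, 84% of the mitosis genes and 43.4% of tested genes. TTTGAA, the cell cycle homology region (CHR) known from late cell cycle promoters, was found in 17.1%, 76% and 13.9% of those sets in the same order. Among the 43 genes, the 22 with an E2F match had a median difference of -0.30, the 13 without one -0.18, and the 8 with no promoter in the table -0.22. Members on both sides of WT had a match (E2f8 and Orc1), and Slbp and Mcm2, among the more negative members, had none. A match is a description of these letters in the reference genome and does not show that a factor was bound in these cells.

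**Figure D4:**
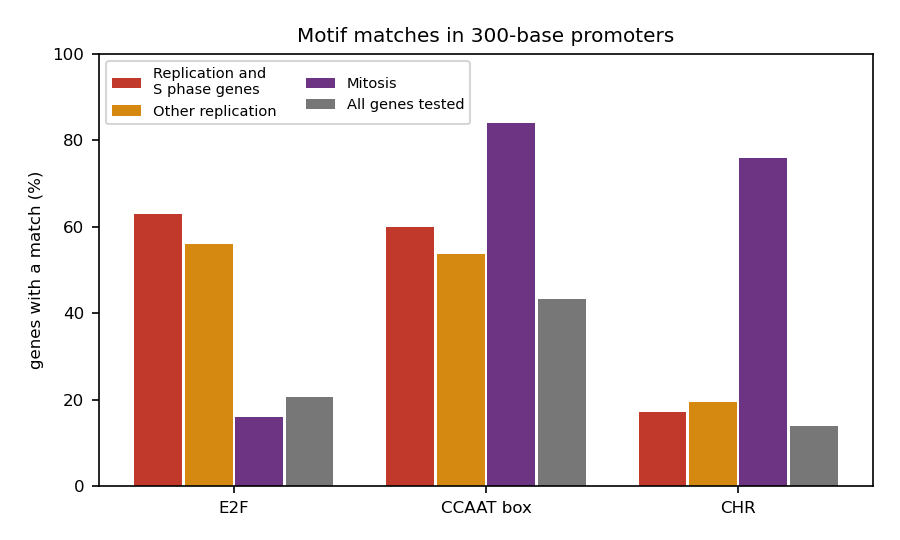
Share of genes with at least 1 match in the promoter window, in percent, for the E2F motifs spelled out earlier, CCAAT and the CHR letters TTTGAA on both strands, with bars for the replication and S phase genes, other replication genes, mitosis genes and all genes tested. E2F matches were most common in the 2 replication lists (62.9% and 56.1%), and CHR matches in the mitosis list (76%).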

How the data were processed

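RNA-seq libraries from 2 MSC KO-labelled and 2 WT-labelled iTreg cultures were deposited by the authors as 2 gene tables. Reads were aligned to mm9 with TopHat, per the submitters' processing notes, with version and annotation not given in the sources used here. Each table has the layout of Cuffdiff's gene test. FPKM is the unit of the deposited values, as read from the headers and the numbers themselves. The authors' tables also hold a p-value and a q-value per gene. Joint normalization of the tables is not stated.

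Rows without a symbol (1925 and 2325, holding 49.9% to 54.1% of the summed FPKM) and 24 symbols per table that read as dates were left out. Of repeated symbols the row with the highest mean was kept. From 22129 shared symbols, 3 at loci that did not overlap and 6 with failed estimates were dropped. Values were taken as log2(FPKM + 1), a scale that understates folds of low genes, for genes with a mean of at least 1 FPKM. limma 3.58.1 (R 4.3.3), blocked by table, using a trended prior (2.35 prior degrees of freedom), gave two-sided p-values with Benjamini-Hochberg adjustment over all genes at 0.05. The fit was tested on simulated data, where it missed nearly all of the smaller planted changes and some of its calls were false. Differences as small as those of the members could therefore hardly be called. Depth used GENCODE M21 transcript lengths by gene name. Tables were handled in Python 3.11.15 with pandas 2.3.3. Alternatives covered pseudocount, filter, scaling, block, prior, small RNA symbols and leaving out each library.

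The members and lists were chosen with earlier results of these data known. All 43 members are reported. Of each other list, up to 5 genes were eligible to be named, ranked by the smaller of the 2 tables' differences where both had the same sign, and Msc, Foxp3, Mki67 and Top2a were named as checks. Cd3e, Cd4, Ctla4, Cd28, Cd79b, Cd8a and Cd8b1 come from the marker lists and were picked after their values were seen.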

Additional observations from a re-analysis of the deposited data

How the results depend on the processing

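The median difference of the 43 genes stayed between -0.30 and -0.24 under the pseudocount, filter, scaling, block, prior and small RNA alternatives and between -0.32 and -0.21 with 1 library left out. Between 35 and 40 of the 43 lay below WT in both tables wherever both tables were kept, a count that the fits without a library cannot give. The count of members called was 0 under all these settings except without MSC KO 1 and without MSC KO 2, so leaving out a library gave 0 to 22. Genes called over the whole table numbered 1, but 0 with no filter on low values, quantile normalization or a prior without trend, 3 with a mean of at least 5 FPKM, 21 with median centring, 7 with the same sum in each library, 26 with small RNA symbols left out and 0 to 2665 with 1 library left out. With no replicate block the count was 153, again with 0 of the 43. Same-numbered libraries deviated together weakly (r = 0.06 across genes). With 2 libraries of each label, that value cannot tell whether the replicate numbers pair the samples beyond sharing a table. The median of the other replication genes was -0.28 with the same sum in each library and -0.24 to -0.20 with 1 library left out, and that of the mitosis genes -0.37 to -0.25 with 1 library left out. Signs turned for Mcm10 (-0.10 to 0.013 with 1 library left out, above 0 without WT 2 or MSC KO 2), Tk1 (-0.23 to 0.048) and Gins1 (-0.33 to 0.047), both above 0 without MSC KO 2, and Prim2 (-0.0057 with the same sum in each library). With 1 library left out, differences moved by over 1.5 times in 14 of the 43 genes without MSC KO 1, 17 without MSC KO 2, 2 without WT 1 and 3 without WT 2. The cause of these changes was not tested. The fit had 1 residual degree of freedom, and p-values that miss the threshold do not show equal levels.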

Other observations

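Symbols starting with Hist1h to Hist4h, a prefix that takes in replication-dependent histone genes but also pseudogenes and testis variants, numbered 64, of which 19 reached a mean of 1 FPKM. Their summed level was 28.1 and 29.1 FPKM in MSC KO-labelled libraries, against 39.0 and 41.4 FPKM in WT-labelled ones, and 10 lay below WT in both tables, beside 37.5% of all genes, and 3 above, beside 31.2%. None passed by limma (lowest adjusted p = 0.115, of Hist1h2aa), and 5 had an unadjusted p under 0.05, beside 20.4% of all genes. Some of the 19 reached the mean of 1 FPKM through 1 label alone, so these counts and p-values follow partly from the filter. Most replication-dependent histone mRNAs lack a poly(A) tail and come from near-identical copies, so these values are uncertain. Hist1h4i had 4.98 and 1.72 FPKM, against 9.68 and 8.70 FPKM. Hist1h2aa, a testis variant, had 3.57 and 4.40 FPKM in MSC KO-labelled libraries and is listed at 0 in both WT-labelled ones. It thus passed the filter through the MSC KO-labelled libraries alone. Hist1h3a passed through the WT-labelled ones alone, with a mean of 2.51 FPKM there and 0.634 FPKM in MSC KO-labelled ones.

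The Gmnn level was 2.41 and 2.46 times that of Cdt1 in MSC KO-labelled libraries, against 2.54 and 2.43 times in WT-labelled ones. The Orc1 level was 0.260 and 0.189 times that of Orc6, against 0.140 and 0.147 times.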
